A study of Mus musculus with 89 samples.

Results

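EKOiE cells are mouse embryonic stem (ES) cells that lack the endogenous Esrrb gene product and make Esrrb from a transgene induced by doxycycline (Dox). The comparison described here is between the control state of these cells, Esrrb and Nr5a2 both present (+E+N), in the 2 media of the study, 2i/LIF and FCS/LIF. Its members are the RNA-seq libraries whose labels give EKOiE, Esrrb present and Nr5a2 present, 3 in 2i/LIF and 2 in FCS/LIF, which makes 5 of 89 samples and 5 of 20 RNA-seq libraries in the series. The rule for members used these labels and no measured value, but members and gene lists were chosen with earlier results of these data known.

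All 5 libraries came from cells plated in 6-well plates and kept for 2 days in Dox at 1 µg/ml, so all of them lack the endogenous Esrrb protein and carry the transgene. FCS/LIF is DMEM with 10% foetal calf serum and LIF at 10 ng/ml on gelatine. 2i/LIF is a serum-free mixture of DMEM/F12 and Neurobasal with N2, B27, insulin and albumin supplements, LIF at 10 ng/ml, 1 µM PD0325901 and 3 µM CHIR99021. The media therefore differed in serum, basal medium, supplements and both inhibitors at once, and how long the cells had been kept in each before plating is not given in the sources used here. No library was made from cells moved between the media within a batch, so medium and culture batch cannot be told apart. The labels do not say whether replicates were separate cultures, and the study's methods speak of duplicates in FCS/LIF and triplicates in 2i/LIF, so p-values measure the spread between these libraries. EKOiE NrKO cells, made from EKOiE by disrupting, on both alleles, the Nr5a2 exon in which the DNA-binding domain begins, were also sequenced in both media with Dox (-N, 3 libraries in 2i/LIF and 2 in FCS/LIF), and their values are given beside the control values at the end. The study's methods describe 2 NrKO clones and speak of RNA-seq in clone 4, while the labels tie no library to a clone.

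PD0325901 blocks Mek, the kinase that activates Erk, and CHIR99021 blocks Gsk3, the kinase that marks beta-catenin for destruction. LIF acts through Stat3. ES cells in 2i/LIF are known to resemble the naive epiblast of the preimplantation embryo, whereas cells in serum and LIF form a mixed population in which some cells express genes of the later, formative epiblast. Bulk RNA cannot tell fewer cells expressing a gene from less RNA of it per cell, and this holds for every value below.

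Library totals were 38853062 and 42980094 counts in FCS/LIF and 27330885 to 32526534 in 2i/LIF, and the 10 most abundant genes took 5.43% to 5.50% and 5.72% to 5.94% of them. No pair of libraries agreed within sampling noise (chi-square per degree of freedom 5.58 to 18.9), and in 2i/LIF replicate 1 stood farther from replicates 2 and 3 (13.9 and 18.9) than these did from each other (5.58). The ES cell label held in both media: the summed TPM (abundance per transcript length and library) of Pou5f1, Sox2, Nanog, Zfp42, Esrrb, Dppa5a and Tdgf1 were 7993 to 8045 in FCS/LIF and 7681 to 8139 in 2i/LIF. Dppa5a made up most of this sum, with mean TPM of 5385 in FCS/LIF and 4929 in 2i/LIF. Beneath it, mean TPM of Nanog went from 154 to 529 and that of Sox2 from 232 to 169. Summed TPM of 7 fibroblast markers was 5.27 to 5.69 in FCS/LIF and 0.81 to 2.65 in 2i/LIF, with Lum at 0 in the former and Dcn and Postn at 0 in the latter. Over the lists of 16 genes each, summed TPM were 274 to 317 in FCS/LIF against 215 to 249 in 2i/LIF for primitive endoderm, 360 to 433 against 64.3 to 79.5 for trophectoderm, 20.5 to 24.5 against 21.3 to 21.4 for mesoderm and 99.8 to 104 against 37.5 to 44.9 for the neural lineage. Sums over 5 or 6 markers gave a larger gap for primitive endoderm (10.4 to 14.8 against 1.66 to 2.97) and trophectoderm (236 to 287 against 9.38 to 12.9), a smaller one for the neural lineage (13.5 to 13.6 against 7.63 to 9.90, with Neurog2 at 0 in 2i/LIF), and for mesoderm values that were higher in 2i/LIF (2.12 to 2.77 against 14.7 to 17.1). The trophectoderm sum was mainly keratin: Krt8, Krt18 and Krt7 had mean TPM of 128, 116 and 14.8 in FCS/LIF against 5.53, 4.35 and 0.483 in 2i/LIF. Gata3, Cdx2 and Elf5 were at 1.57, 1.035 and 0.155 against 0.327, 0.797 and 0.127. Gsc made up most of the mesoderm marker sum in 2i/LIF, with a mean TPM of 10.1 there against 0.485 in FCS/LIF.

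Of 15095 genes tested, 5279 (35.0%) passed an adjusted p of 0.01 and a fold change of 1.5 between media by the quasi-likelihood test of edgeR (Benjamini-Hochberg). 2651 genes (17.6%) were higher in 2i/LIF and 2628 (17.4%) were lower, and every gene called in this comparison is meant by "rose" or "fell" below, always in the direction from FCS/LIF to 2i/LIF. The median log2 fold change over all genes tested was 0.01. Large falls outnumbered large rises: 1041 called genes fell and 676 rose by more than 4-fold, and 308 fell and 143 rose by more than 16-fold. 39 of the genes that fell had no count in any 2i/LIF library, and 4 of those that rose had none in FCS/LIF. A gene entered the test if every library of either medium reached a count minimum. Genes with no count in a medium thus entered through the other alone. 954 of the genes that fell entered through FCS/LIF alone, and 398 of those that rose through 2i/LIF alone. Among genes that reached the minimum in both media the balance was the other way, with 2253 rises and 1674 falls. How the large changes divided by entry was not counted. All called genes had values that did not overlap between the media, but so did 11312 of the 15095 genes tested, so lack of overlap is common with 3 libraries against 2. A permutation test of a single gene in this design has 10 arrangements and cannot give a two-sided exact p under 0.2. CPM (counts scaled to library size) are used for levels within a gene and TPM for levels between genes.

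Across 34 gene lists, the median log2 fold change ran from -4.30 in trophectoderm genes to 4.88 in Hox genes. A gene entered the test if it was high enough in either medium, and one that entered through 1 medium alone is in part chosen for leaning that way: of the 15095 genes, 12918 reached the count minimum in both media, 487 in 2i/LIF alone and 1690 in FCS/LIF alone. Both ends of the ranking rest in part on such genes. 12 of the 16 Hox genes entered through 2i/LIF alone, and the 4 others had a median of 2.64, while 4 of the 15 trophectoderm genes entered through FCS/LIF alone, and the 11 others had a median of -2.24. Among genes that reached the minimum in both media the median was above 0 in lists where it was below 0 over all tested members: Fgf ligands and receptors (0.39), Bmp-Smad genes (0.13), nuclear receptors (0.10) and Wnt ligands, receptors and inhibitors (0.01). Lists are read against the shares of all genes tested, 17.6% higher and 17.4% lower.

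**Figure D1:**
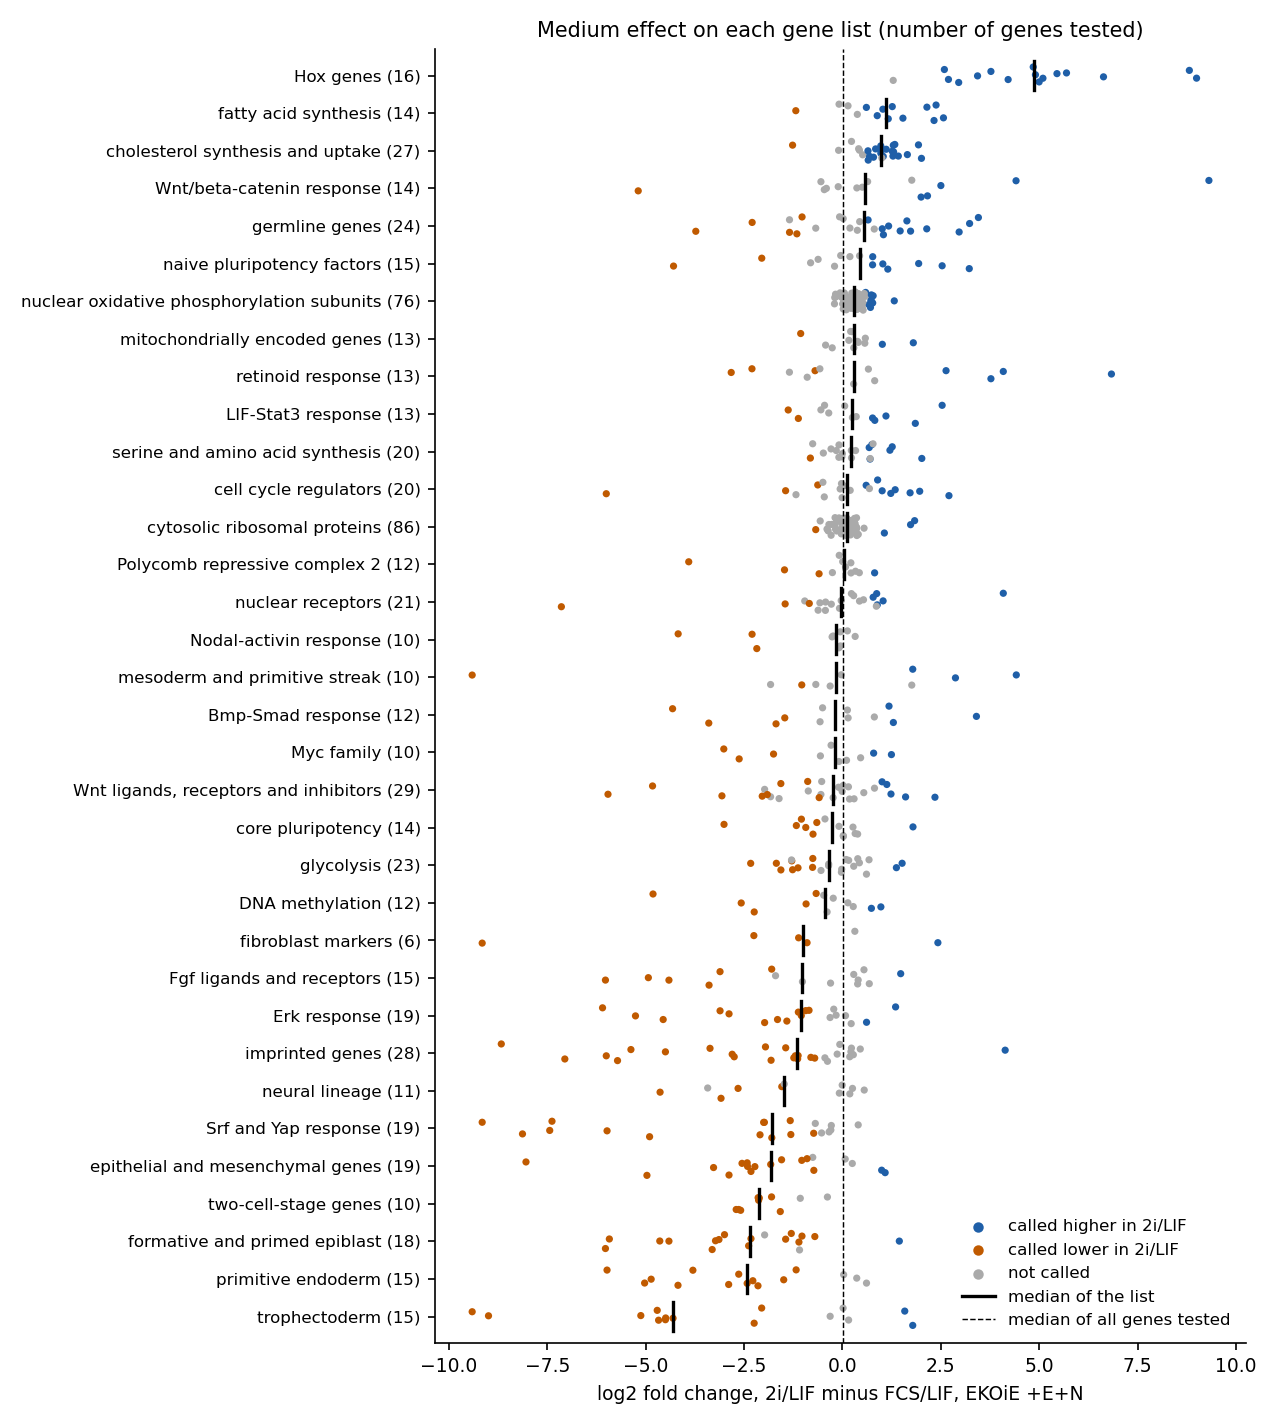
log2 fold change (2i/LIF minus FCS/LIF, x axis) of every tested gene of each of 34 lists (y axis, number of genes tested in brackets) in +E+N cells. Each point is a gene, coloured by whether it was called, black bars are list medians, and the dashed line is the median of all 15095 genes, 0.01. The list medians run from -4.30 for trophectoderm genes at the bottom to 4.88 for Hox genes at the top.

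Esrrb and Nr5a2 come first, since the study rests on them. Counts of Esrrb do not separate RNA of the transgene from any RNA of the disrupted endogenous gene. Esrrb RNA was at 271 and 353 CPM in FCS/LIF and 509, 604 and 601 CPM in 2i/LIF (log2 fold change 0.87 ± 0.17 (SE), adjusted p = 3.6e-04). On the per-length scale the same libraries had 163 and 249 TPM against 187, 252 and 273 TPM, and these overlap. The call was lost in limma on log2(TPM + 1) (0.22, adjusted p = 0.46) and without FCS/LIF replicate 1 (0.70, adjusted p = 0.013), so the rise of Esrrb depended on the scale and on 1 library. Nr5a2, an orphan nuclear receptor that shares the Esrrb binding motif, was at 39.9 and 36.1 CPM in FCS/LIF and 79.3, 70.1 and 61.4 CPM in 2i/LIF (0.89 ± 0.21, adjusted p = 0.0014). All 3 values in 2i/LIF lay above both in FCS/LIF, and the call was lost without FCS/LIF replicate 2 (0.80, adjusted p = 0.025) and on log2(TPM + 1) (0.67, adjusted p = 0.011). Per length, Esrrb stood far above Nr5a2 in either medium (12.9 and 13.7 TPM of Nr5a2 in FCS/LIF, 19.7 to 24.5 TPM in 2i/LIF). The genes lie on chr12:86361117-86521628 and chr1:136842571-136960448 (mm10).

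Among core pluripotency genes Pou5f1 and Sox2 did not pass the test, several others fell and Nanog rose. Pou5f1, which encodes Oct4, was at 1378 and 1243 CPM in FCS/LIF and 1382, 1330 and 1278 CPM in 2i/LIF (0.02 ± 0.13, adjusted p = 0.90). Sox2 was at 377 and 346 CPM against 234, 291 and 274 CPM (-0.44 ± 0.14, adjusted p = 0.012), lower in all 3 libraries but past neither limit. Nanog, a homeodomain factor that sustains self-renewal, was the only member of this list that rose, from 287 and 235 CPM to 778, 931 and 1003 CPM (1.79 ± 0.12, adjusted p = 1.7e-09). Utf1, a chromatin-associated factor of ES cells, fell from 323 and 307 CPM to 23.2, 46.1 and 48.3 CPM (-3.01 ± 0.42, adjusted p = 9.0e-06). Of 14 core genes tested, 6 fell and 1 rose. The smaller falls were those of Dppa4 (-1.17 ± 0.14), L1td1 (-1.04 ± 0.15), Rif1 (-0.93 ± 0.08), Trim71 (-0.75 ± 0.12) and Sall4 (-0.65 ± 0.07).

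The naive pluripotency list holds auxiliary transcription factors, which are lost first when cells leave the naive state, along with other naive genes. It did not rise as a block. Of 15 tested, 7 rose, 2 fell and 6 did not pass, with a median of 0.44. The falls were those of Dppa3 and Fgfbp1, which do not encode transcription factors. Prdm14, a repressor of Fgf signalling and DNA methylation genes, rose most, from 6.07 and 5.03 CPM to 53.8, 52.9 and 48.8 CPM (3.22 ± 0.14, adjusted p = 2.0e-11). Tfcp2l1, a Stat3 target and partner of Esrrb, rose from 123.02 and 137.86 CPM to 790, 716 and 762 CPM (2.53 ± 0.15, adjusted p = 3.8e-10). Tbx3 rose from 42.4 and 57.3 CPM to 167, 204 and 202 CPM (1.94 ± 0.16, adjusted p = 2.8e-08). Within the Krüppel-like factors the values differed: Klf2 rose (1.15 ± 0.13) and Klf4 rose (0.77 ± 0.14), whereas Klf5 was at 164 and 160 CPM against 172, 194 and 188 CPM (0.19 ± 0.19, adjusted p = 0.41). Zfp42, also called Rex1 and widely used as a naive marker, was at 519 and 474 CPM against 451, 498 and 496 CPM (-0.04 ± 0.11, adjusted p = 0.76), and the groups overlapped. Dppa3, a maternal factor that guards DNA methylation marks, fell from 51.1 and 42.6 CPM to 14.9, 11.2 and 7.72 CPM (-2.05 ± 0.33, adjusted p = 4.0e-05). Fgfbp1, an Fgf-binding protein, fell from 34.8 and 44.1 CPM to 2.92, 1.77 and 1.28 CPM (-4.29 ± 0.26, adjusted p = 6.5e-10).

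Most formative and primed epiblast genes fell. Of 18 tested, 15 fell and 1 rose, with a median of -2.35. Of these, 4 entered the test through FCS/LIF alone, and 3 of them fell. Of the 14 others, 12 fell and 1 rose, with a median of -1.88. Pou3f1, which encodes Oct6, fell from 47.8 and 52.6 CPM to 0.603, 0.885 and 1.00 CPM (-5.92 ± 0.21, adjusted p = 1.2e-12). Otx2, which redirects Oct4 as cells leave the naive state, fell from 35.7 and 41.7 CPM to 1.84, 1.44 and 1.35 CPM (-4.64 ± 0.24, adjusted p = 1.0e-10). Every library in 2i/LIF was thus far below every library in FCS/LIF for both factors. Fgf5, the classical marker of the post-implantation epiblast, had 202 counts over the FCS/LIF libraries and 3 over those in 2i/LIF, a 72.1-fold lower level by count ratio (95% exact interval 24.3 to 352, counting error only). Fgf15 fell from 9.19 and 9.62 CPM to 0.0317, 0.553 and 0.761 CPM (-4.41 ± 0.46, adjusted p = 3.8e-07). The RNA-binding proteins Lin28a and Lin28b, which block let-7 maturation, fell by 3.00 and 3.14 on the log2 scale. Wnt8a and Sox3 were the members that did not pass (-1.98 ± 0.79 and -1.09 ± 0.44). Tead2, a partner of Yap, went the other way, from 63.7 and 47.6 CPM to 138, 163 and 153 CPM (1.45 ± 0.13, adjusted p = 5.1e-08).

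**Figure D2:**
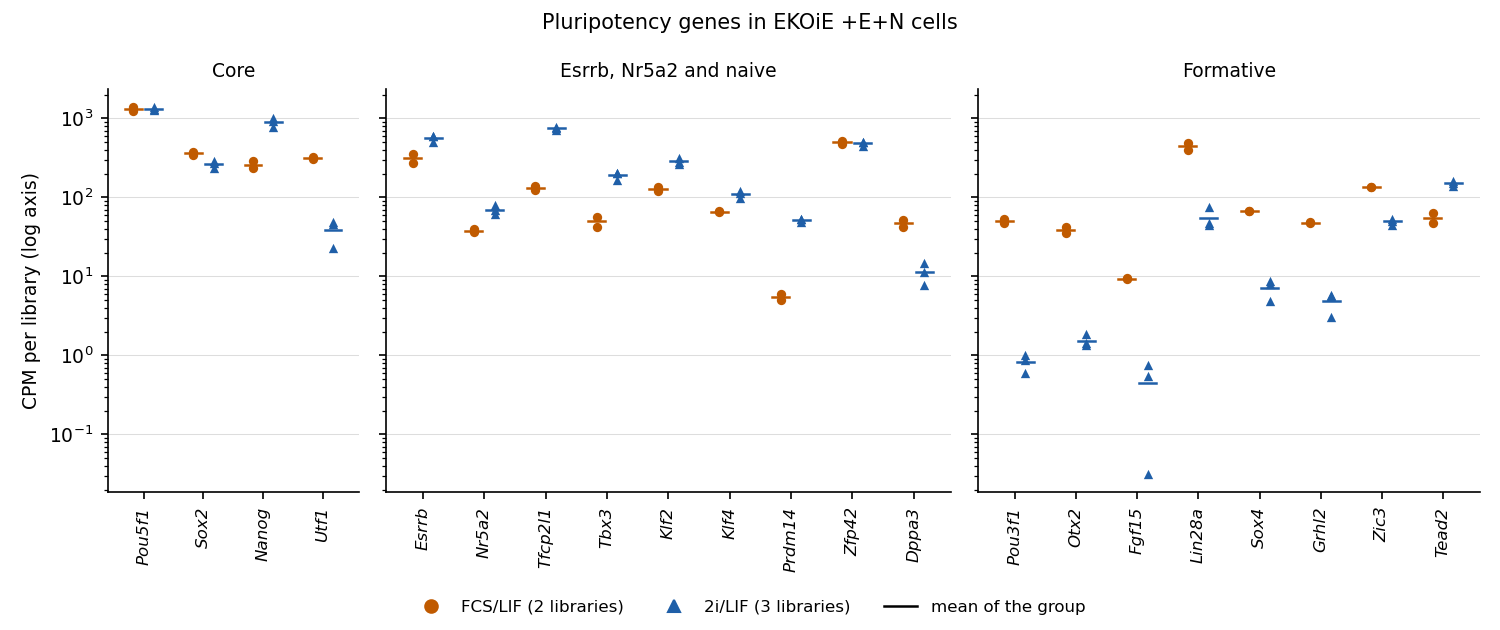
CPM in each +E+N library (y axis, log scale) for core genes, for Esrrb, Nr5a2 and naive genes, and for formative genes (x axis). Circles are the 2 FCS/LIF libraries, triangles the 3 2i/LIF libraries and bars group means. Pou5f1 and Zfp42 sit at the same height in both media, Tfcp2l1 and Prdm14 rise, and Pou3f1 drops from about 50 CPM to 1.00 CPM or less.

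The first question the medium poses is what happened to the targets of the blocked kinases. The Erk response list holds immediate early genes and the feedback inhibitors that Erk signalling switches on. Of 19 tested, 12 fell and 2 rose, with a median of -1.04. However, 4 of the 19 entered the test through FCS/LIF alone, and all 4 fell. Of the 15 that reached the count minimum in both media, 8 fell and 2 rose, and their median was -0.85. Egr1, an immediate early transcription factor, fell from 31.4 and 20.9 CPM to 0.222, 0.553 and 0.381 CPM (-6.09 ± 0.38, adjusted p = 8.7e-10). Dusp4, a phosphatase that inactivates Erk, fell from 24.3 and 27.7 CPM to 0.508, 0.848 and 0.692 CPM (-5.26 ± 0.29, adjusted p = 2.5e-10). Spry4, an inhibitor of receptor tyrosine kinase signalling, fell from 77.0 and 78.4 CPM to 1.33, 3.76 and 4.92 CPM (-4.55 ± 0.67, adjusted p = 1.7e-05). Its relative Spry2 fell much less (-0.85 ± 0.20), as did Spred1 (-0.93 ± 0.14), and Dusp6 lay between (-1.98 ± 0.36). The Ets factors that serve as readouts of Fgf signalling did not move together. Etv5 was at 528 and 576 CPM against 440, 460 and 435 CPM (-0.31 ± 0.13, adjusted p = 0.045), while Etv4 rose from 58.8 and 53.8 CPM to 140, 142 and 149 CPM (1.35 ± 0.23, adjusted p = 6.7e-05) and Etv1 rose by 0.61 ± 0.13. Without FCS/LIF replicate 1 the calls of Spry2 (-0.77) and Etv1 (0.48) were lost.

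Fgf ligands and receptors, which feed this pathway, gave 6 falls and 1 rise among 15 tested, with a median of -1.01, and 4 of the falls were among the 6 members that entered the test through FCS/LIF alone. Fgfr2, the receptor of the primitive endoderm, fell from 38.5 and 52.1 CPM to 0.698, 1.59 and 2.22 CPM (-4.93 ± 0.28, adjusted p = 3.7e-10). Fgfr1, the receptor used by the epiblast, was at 91.4 and 101 CPM against 120, 114 and 118 CPM (0.29 ± 0.08, adjusted p = 0.0052), short of the fold limit. Fgf4, the main autocrine ligand of ES cells, was at 104 and 87.2 CPM against 134, 132 and 110 CPM (0.39 ± 0.19, adjusted p = 0.087). Fgf3 rose from 0.969 and 1.29 CPM to 3.17, 3.06 and 3.25 CPM (1.48 ± 0.26, adjusted p = 1.0e-04).

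Beta-catenin acts on genes through Tcf/Lef proteins, which bind the sequence CTTTGAT. Of 14 genes of the Wnt/beta-catenin response list tested, 5 rose, 1 fell and 8 did not pass, with a median of 0.57. Cdx1, a caudal homeobox gene of the primitive streak, had the largest rise of all genes named by rule, from 0.105 and 0.207 CPM to 97.2, 92.8 and 120 CPM (9.31 ± 0.24, adjusted p = 9.2e-14). Sp5, a zinc finger factor and a direct target of the pathway, rose from 1.36 and 0.942 CPM to 40.9, 18.3 and 13.6 CPM (4.41 ± 0.52, adjusted p = 1.5e-06). Axin2, the feedback inhibitor of the pathway, rose from 7.36 and 8.54 CPM to 62.4, 38.4 and 34.4 CPM (2.50 ± 0.28, adjusted p = 7.2e-07). For both of these genes 2i/LIF replicate 1 stood above the other 2i/LIF libraries. Tnfrsf19 (2.16 ± 0.22) and Apcdd1 (2.00 ± 0.17) completed the rises. Lef1, which encodes a DNA-binding partner of beta-catenin, fell from 27.7 and 26.6 CPM to 0.952, 0.590 and 0.658 CPM (-5.19 ± 0.26, adjusted p = 8.6e-11). Ccnd1, encoding cyclin D1, was at 133 and 131 CPM against 122, 87.1 and 78.7 CPM (-0.46 ± 0.23, adjusted p = 0.091). T, the brachyury gene, was at 0.419 and 0.482 CPM against 2.79, 0.848 and 0.935 CPM (1.76 ± 0.63, adjusted p = 0.021), with 2i/LIF replicate 1 again the highest. Without that library 2 members fell.

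Upstream sequence of Sp5 is shown because this gene joined a large rise to a match of the Tcf/Lef motif near its start. Of the 9 list genes with a RefSeq promoter, 2 (22.2%, Sp5 and Tnfrsf19) held CTTTGAT on either strand in the 250 bases before the start, against 2.67% of the 10881 tested genes that matched by symbol, 3.67% of genes that rose and 2.52% of genes that fell. The Sp5 match begins 104 bases before the start (capitals, RefSeq, GRCm38.p6, chr2:70474673-70474922, + strand).
Sp5: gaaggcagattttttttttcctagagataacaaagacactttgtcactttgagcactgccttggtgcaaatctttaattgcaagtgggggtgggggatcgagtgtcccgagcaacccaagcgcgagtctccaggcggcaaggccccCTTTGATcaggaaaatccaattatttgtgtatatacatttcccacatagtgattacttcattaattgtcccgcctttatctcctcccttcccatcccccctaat

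Among Wnt ligands, receptors and inhibitors, 5 of 29 rose and 8 fell. Ligands accounted for the deep falls: Wnt5a, a non-canonical ligand, from 2.49 and 3.65 CPM to 0, 0.0738 and 0.0692 CPM (-5.96 ± 0.54, adjusted p = 7.7e-08), and Wnt7b from 21.5 and 20.2 CPM to 1.46, 2.80 and 3.25 CPM (-3.06 ± 0.29, adjusted p = 1.3e-07). Among Frizzled receptors, Fzd7 fell from 153 and 154 CPM to 51.7, 57.1 and 46.9 CPM (-1.56 ± 0.09, adjusted p = 3.6e-10), while Fzd10 rose from 8.27 and 9.42 CPM to 47.6, 47.6 and 40.4 CPM (2.35 ± 0.16, adjusted p = 2.2e-09). Ctnnb1, which encodes beta-catenin, Gsk3b and Tcf7l1 had log2 fold changes of -0.05, -0.01 and 0.02 and did not pass.

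LIF was present at the same concentration in both media. Of 13 LIF-Stat3 response genes, 5 rose and 2 fell, and Tfcp2l1 and Klf4 are also in the naive list. Bcl3, a nuclear IκB protein, rose from 26.3 and 23.1 CPM to 89.2, 93.0 and 85.4 CPM (1.85 ± 0.15, adjusted p = 2.1e-08), and Gbx2 rose by 1.11 ± 0.11. Socs3, the feedback inhibitor most often used to read Stat3 activity, was at 101 and 119 CPM against 102, 145 and 147 CPM (0.25 ± 0.21, adjusted p = 0.31), and the groups overlapped. Cish, another Stat target, fell from 5.29 and 6.18 CPM to 1.78, 2.40 and 2.46 CPM (-1.38 ± 0.26, adjusted p = 2.4e-04).

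Serum supplies Bmp ligands, and the Id genes are the direct targets by which Bmp restrains differentiation. Id2 fell from 19.3 and 20.2 CPM to 1.33, 0.590 and 1.00 CPM (-4.31 ± 0.30, adjusted p = 2.8e-09), Id3 fell from 50.9 and 42.7 CPM to 3.11, 4.54 and 5.75 CPM (-3.40 ± 0.35, adjusted p = 3.1e-07) and Id1 fell by 1.69 ± 0.12. The whole Bmp-Smad list, Id1, Id2 and Id3 included, did not fall as a group: 4 of 12 genes fell, 3 rose, and the median was -0.19. Smad9 rose from 0.340 and 0.207 CPM to 3.78, 3.10 and 1.83 CPM (3.41 ± 0.40, adjusted p = 1.5e-06), and Smad6 and Id4 rose by 1.18 ± 0.25 and 1.30 ± 0.40, but both calls were lost without FCS/LIF replicate 2 (1.04 and 0.92), which leaves 1 rise in the list, and Id4 lost its call without each of 3 other libraries too (0.84 to 1.75). Among 10 Nodal-activin genes, 3 fell and none rose. Lefty1, a secreted inhibitor of Nodal, fell from 101 and 103 CPM to 6.16, 6.49 and 4.33 CPM (-4.17 ± 0.24, adjusted p = 4.3e-10), Lefty2 fell from 40.7 and 40.3 CPM to 9.62, 8.37 and 6.71 CPM (-2.29 ± 0.19, adjusted p = 3.1e-08) and Skil fell by 2.17 ± 0.17. Nodal itself was at 62.6 and 66.6 CPM against 60.3, 63.6 and 63.0 CPM (-0.05 ± 0.20, adjusted p = 0.83).

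Serum also activates Srf, which drives actin and smooth muscle genes through the CArG box, and Yap. Of 19 Srf and Yap response genes tested, 13 fell and none rose, with a median of -1.79. However, 6 of the 19 entered the test through FCS/LIF alone, and all 6 fell. Of the 13 that reached the count minimum in both media, 7 fell, and their median was -0.73. Tagln, a smooth muscle actin-binding protein, fell from 48.8 and 49.2 CPM to 0.222, 0.111 and 0.173 CPM (-8.13 ± 0.26, adjusted p = 4.3e-13). Acta2, smooth muscle alpha actin, had 1234 counts over the FCS/LIF libraries and 2 over those in 2i/LIF, a 661-fold lower level by count ratio (95% exact interval 182 to 5460). Myl9, a myosin light chain, fell from 25.7 and 26.8 CPM to 0.381, 0.480 and 0.381 CPM (-5.98 ± 0.18, adjusted p = 2.5e-13). Ankrd1 had 50 counts in FCS/LIF and none in 2i/LIF, at least 17.8-fold lower against a floor of 3 counts over the group. Thbs1 fell by 7.44 ± 0.41. The Yap targets Ctgf and Cyr61 fell less, by 1.33 ± 0.17 and 1.98 ± 0.14, and beta actin itself (Actb) was at 1976 and 1872 CPM against 1845, 1441 and 1424 CPM (-0.29 ± 0.15, adjusted p = 0.11).

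The sequence before Myl9 is shown as the member with a deep fall and a CArG box near its start. A CArG box stood on either strand in the 250 bases before the start of 4 (30.8%) of the 13 list genes with a RefSeq promoter, namely Myl9, Cnn2, Vcl and Srf, against 1.42% of the 10881 genes, 2.31% of genes that fell and 1.44% of genes that rose. Of these 4, Vcl and Srf did not pass (-0.34 ± 0.13 and -0.53 ± 0.08). The Myl9 match begins 161 bases before the start (capitals, RefSeq, GRCm38.p6, chr2:156775214-156775463, + strand).
Myl9: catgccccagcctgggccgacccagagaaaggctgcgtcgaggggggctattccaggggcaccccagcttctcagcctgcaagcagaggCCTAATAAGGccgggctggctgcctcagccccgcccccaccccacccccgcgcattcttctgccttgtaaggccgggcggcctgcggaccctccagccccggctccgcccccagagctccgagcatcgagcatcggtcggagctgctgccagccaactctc

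**Figure D3:**
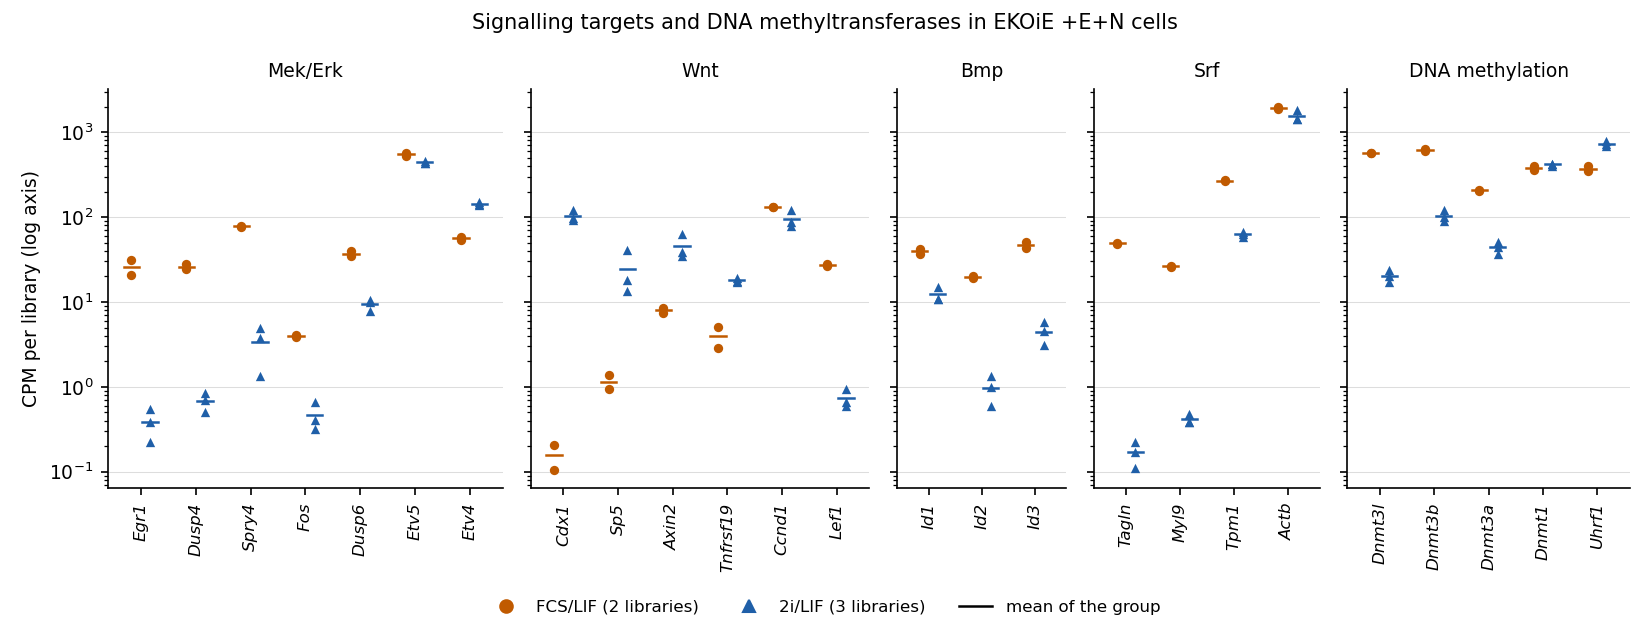
CPM in each +E+N library (y axis, log scale) for genes of 5 groups named above the panels (x axis). Circles are the 2 FCS/LIF libraries, triangles the 3 2i/LIF libraries and bars group means. Egr1, Dusp4, Tagln and Lef1 lie 1 or more decades lower in 2i/LIF, Cdx1 rises from under 1 CPM to 92.8 CPM or more, and Etv5, Actb and Dnmt1 stay near their FCS/LIF values.

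The de novo DNA methylation machinery was far lower in 2i/LIF. Dnmt3l, the catalytically inactive cofactor, fell from 575 and 567 CPM to 20.2, 17.1 and 23.7 CPM (-4.81 ± 0.21, adjusted p = 1.4e-11). Dnmt3b fell from 637 and 598 CPM to 121, 89.2 and 101 CPM (-2.57 ± 0.11, adjusted p = 1.6e-11) and Dnmt3a from 205 and 210 CPM to 36.5, 44.6 and 50.8 CPM (-2.24 ± 0.10, adjusted p = 2.0e-11). The maintenance enzyme Dnmt1 was at 403 and 359 CPM against 427, 428 and 406 CPM (0.14 ± 0.09, adjusted p = 0.17), and its recruiting factor Uhrf1 rose from 399 and 345 CPM to 793, 725 and 681 CPM (0.98 ± 0.13, adjusted p = 4.0e-06). The oxidising enzymes diverged, Tet1 falling by 0.92 ± 0.16 and Tet2 rising by 0.74 ± 0.17. In all, 5 of 12 genes fell and 2 rose, or 1 without FCS/LIF replicate 2, where Tet2 lost its call (0.65). Of the Polycomb repressive complex 2 list, 3 of 12 fell and 1 rose: the accessory subunit Phf19 fell from 30.8 and 25.6 CPM to 1.65, 1.99 and 2.01 CPM (-3.90 ± 0.27, adjusted p = 2.9e-09), Jarid2 fell by 1.47 ± 0.20, Rbbp7 fell by 0.59 ± 0.07 (short of the fold limit without 2i/LIF replicate 2) and Suz12 rose by 0.82 ± 0.08, whereas Ezh2 was at 190 and 174 CPM against 206, 217 and 211 CPM (0.22 ± 0.06, adjusted p = 0.0062), short of the fold limit. RNA levels say nothing of methylation itself, which was not measured in these libraries.

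Imprinted genes, whose parental alleles carry different DNA methylation, fell in the main. Of 28 tested, 18 fell and 1 rose, with a median of -1.17. All 4 members that entered the test through FCS/LIF alone fell. Among the 24 others, 14 fell and 1 rose, with a median of -0.96. Igf2, a fetal growth factor, fell from 290 and 354 CPM to 0.762, 0.701 and 0.900 CPM (-8.67 ± 0.31, adjusted p = 1.2e-12), and its neighbour H19, a noncoding RNA, fell from 182 and 232 CPM to 1.46, 1.22 and 1.97 CPM (-7.05 ± 0.36, adjusted p = 9.8e-11). They lie on chr7:142650766-142666816 and chr7:142575529-142578143 (mm10), and 62.8% of the exonic bases of Igf2 are shared on the same strand with the gene model Gm49394, so its reads could be split. Cdkn1c, an inhibitor of cyclin-dependent kinases, fell from 89.7 and 97.4 CPM to 1.71, 1.03 and 1.59 CPM (adjusted p = 2.6e-11), and Peg10, a placental gene of retrotransposon origin, fell from 537 and 654 CPM to 12.8, 11.7 and 18.6 CPM (-5.37 ± 0.48, adjusted p = 6.5e-08). The genes of the Meg3 cluster moved little: Meg3 fell by 0.70 ± 0.20, a call lost without any of the 5 libraries (-0.78 to -0.63), and Rian and Mirg did not pass (-0.38 ± 0.15 and -0.44 ± 0.16). Plagl1, a zinc finger factor, was the member that rose, from 9.58 and 10.3 CPM to 186, 157 and 181 CPM (4.14 ± 0.22, adjusted p = 1.2e-10). Allele-specific expression was not measured.

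Germline genes rose more often than they fell (11 and 5 of 24 tested, median 0.55). Several are known to be kept silent in ES cells by promoter methylation. Stra8, the retinoic acid-induced gatekeeper of meiosis, which is counted with the retinoid genes, rose from 1.28 and 1.33 CPM to 66.7, 175 and 209 CPM (6.84 ± 0.77, adjusted p = 8.8e-07). Here 2i/LIF replicate 1 was the lowest of its group. Dazl, a germ cell RNA-binding protein, rose from 4.69 and 6.43 CPM to 35.6, 64.1 and 57.7 CPM (3.23 ± 0.28, adjusted p = 3.7e-08), Hormad1, a protein of the meiotic chromosome axis, from 4.11 and 4.98 CPM to 29.8, 37.1 and 40.0 CPM (2.97 ± 0.14, adjusted p = 4.2e-11), and Brdt from 1.15 and 0.965 CPM to 6.00, 9.59 and 19.3 CPM (3.46 ± 0.60, adjusted p = 9.1e-05). Tdrd1, a Tudor protein of the piRNA pathway, fell from 4.74 and 4.78 CPM to 0.286, 0.590 and 0.208 CPM (-3.73 ± 0.25, adjusted p = 2.5e-09). Ddx4, or Vasa, fell from 17.8 and 23.2 CPM to 8.06, 11.5 and 10.7 CPM (-1.02 ± 0.20, adjusted p = 2.8e-04). The falls numbered 3 without 2i/LIF replicate 1 or without FCS/LIF replicate 2.

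X-linked reproductive gene families, looked up after the ranking had shown some of their members, were also counted. All 10 Xlr family genes tested (16 in the table) rose, with a median of 3.83, and 9 of them had reached the count minimum in both media, among them Xlr3c from 3.72 and 4.36 CPM to 68.3, 82.9 and 79.4 CPM (4.24 on the log2 scale). Of 11 Rhox homeobox genes tested (42 in the table) 8 rose and 3 fell, but 5 of the rises and 1 of the falls were of genes that entered the test through 1 medium alone. Rhox5 rose from 46.8 and 50.0 CPM to 165, 139 and 132 CPM (1.59 on the log2 scale), whereas Rhox6 and Rhox9 fell by 5.20 and 4.44 and Rhox12 was at 0 in every 2i/LIF library. The 3 Magea genes tested (10 in the table) all entered through 2i/LIF alone, so that their rise says nothing of the family. Magea4 went from 0 and 0.184 CPM to 10.8, 9.37 and 11.1 CPM (6.69 ± 0.44, adjusted p = 1.7e-09). Members of these families are near-identical copies, so their single values are uncertain. Over the whole X chromosome the balance was the other way, since 32.0% of 562 tested genes fell and 19.8% rose, with a median of -0.17, the lowest of the 20 chromosomes (the highest was 0.11 on chromosome 11).

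Hox genes are held silent by Polycomb in ES cells and were near 0 in FCS/LIF. Of 40 Hox genes in the table, 16 passed the filter on counts, 15 of them rose and none fell. The filter keeps a gene that is high in either medium, so a gene at 0 in FCS/LIF entered only if it was expressed in 2i/LIF, and the count over the tested genes is not a count over the family. Hoxc5 and Hoxc11 had no count in FCS/LIF and 167 and 146 counts in 2i/LIF, at least 52.0-fold and 45.5-fold higher. Hoxc4 rose from 0.0524 and 0.138 CPM to 5.46, 5.75 and 4.50 CPM (5.70 ± 0.58, adjusted p = 3.1e-07) and Hoxc12 from 0.105 and 0.115 CPM to 5.55, 5.02 and 4.36 CPM (5.45 ± 0.36, adjusted p = 1.5e-09). Hoxc13 had the highest FCS/LIF values of the Hoxc members, 1.68 and 2.94 CPM, and rose to 13.9, 14.4 and 13.6 CPM (2.59 ± 0.20, adjusted p = 8.8e-09). The Hoxc genes span chr15:102921103-103036852 (mm10) from Hoxc13 to Hoxc4. Hoxd13 did not pass (1.29 ± 0.45, adjusted p = 0.021).

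The retinoid list, to which Stra8 also belongs, gave 4 rises and 3 falls among 13 genes. Dhrs3, a retinoid reductase, rose from 0.497 and 0.413 CPM to 2.22, 2.84 and 3.46 CPM (2.63 ± 0.54, adjusted p = 4.7e-04), a call lost without FCS/LIF replicate 2 (2.48), whereas Cyp26a1, the enzyme that degrades retinoic acid, fell from 2.36 and 1.95 CPM to 0.0952, 0.480 and 0.346 CPM (-2.83 ± 0.74, adjusted p = 0.0031). The Cyp26a1 call was lost without 2i/LIF replicate 1 (-2.38, adjusted p = 0.016) and without FCS/LIF replicate 1 (-2.67, adjusted p = 0.018). Rarb, a retinoic acid receptor and its own target, was at 0.0785 and 0.184 CPM against 0.698, 2.47 and 3.88 CPM (4.09 ± 1.03, adjusted p = 0.0024), a call lost without 2i/LIF replicate 3 (3.51, adjusted p = 0.010) and without either FCS/LIF library (3.65 and 4.81). The rises numbered 2 without FCS/LIF replicate 2, and the falls 1 without 2i/LIF replicate 1 or without FCS/LIF replicate 1.

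Genes of extraembryonic and differentiated lineages were mostly lower in 2i/LIF. Of 15 primitive endoderm genes, 12 fell and none rose (median -2.42). However, 5 of these falls were among the 6 genes that entered the test through FCS/LIF alone. Of the 9 that reached the count minimum in both media, 7 fell, and their median was also -2.42. The basement membrane collagens Col4a1 and Col4a2 fell from 120 and 162 CPM to 4.98, 3.73 and 4.26 CPM (-5.03 ± 0.20, adjusted p = 4.3e-12) and from 67.2 and 92.1 CPM to 2.22, 3.25 and 2.80 CPM (-4.86 ± 0.21, adjusted p = 1.6e-11). Gata6, the factor that specifies this lineage, fell from 3.51 and 6.38 CPM to 0.444, 0.775 and 2.15 CPM (-2.15 ± 0.47, adjusted p = 8.4e-04), and Gata4 fell by 1.49 ± 0.30. The Gata6 call was lost without FCS/LIF replicate 2 (-1.67). Of 15 trophectoderm genes, 10 fell and 2 rose (median -4.30). Among them, 4 entered through FCS/LIF alone and gave 3 of the falls. Of the 11 others, 7 fell and 2 rose. The simple keratins Krt8 and Krt18 fell from 174 and 201 CPM to 10.6, 5.90 and 8.38 CPM (-4.49 ± 0.30, adjusted p = 1.7e-09) and from 109 and 125 CPM to 3.68, 4.21 and 5.61 CPM (-4.71 ± 0.28, adjusted p = 4.5e-10). Hand1 had 1477 counts in FCS/LIF and 2 in 2i/LIF, or a 791-fold lower level by count ratio (95% exact interval 218 to 6534). Cdx2, the defining trophectoderm factor, was at 1.52 and 2.07 CPM against 2.57, 0.664 and 1.04 CPM (-0.31 ± 0.60, adjusted p = 0.67), and the groups overlapped.

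Mesoderm and primitive streak genes did not fall as a list: 3 of 10 rose and 2 fell, or 1 fell without FCS/LIF replicate 2. Of the 10, 3 entered the test through 2i/LIF alone, with 2 of the rises, and 4 through FCS/LIF alone, with 1 of the falls. Gsc, a homeobox gene of the organiser, rose from 0.367 and 0.459 CPM to 8.25, 10.3 and 8.34 CPM (4.42 ± 0.26, adjusted p = 3.8e-10), Wnt3a rose by 2.87 ± 0.41, and Eomes, which trophectoderm also uses, rose from 2.41 and 3.17 CPM to 7.27, 10.0 and 11.7 CPM (1.79 ± 0.31, adjusted p = 8.9e-05). Of 11 neural genes 4 fell and none rose, with a median of -1.48. However, 5 of the 11 entered the test through FCS/LIF alone and gave 2 of the falls. Of the 6 that reached the count minimum in both media, 2 fell, and their median was -0.04. Sox11 fell from 20.9 and 27.8 CPM to 1.17, 0.553 and 1.18 CPM (-4.63 ± 0.29, adjusted p = 7.6e-10) and Pax6 fell from 8.80 and 8.68 CPM to 0.571, 1.29 and 1.25 CPM (-3.08 ± 0.31, adjusted p = 2.8e-07), but the neural progenitor gene Sox1 was at 4.14 and 3.63 CPM against 3.33, 5.24 and 5.36 CPM (0.26 ± 0.47, adjusted p = 0.65). Of 6 fibroblast genes tested (14 in the table), 4 fell and 1 rose. Thy1 fell from 4.53 and 6.22 CPM to 1.02, 0.738 and 1.63 CPM (-2.25 ± 0.32, adjusted p = 1.3e-05), and Pdgfrb rose from 2.17 and 2.20 CPM to 8.82, 10.8 and 15.7 CPM (2.43 ± 0.33, adjusted p = 6.5e-06). How far cells of these lineages contributed to the falls was not tested.

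Of 19 epithelial and mesenchymal genes tested, 14 fell and 2 rose, with a median of -1.82. Among the falls, 2 were of the 3 genes that entered the test through FCS/LIF alone. The 16 others had 12 falls, 2 rises and a median of -1.68. The splicing factor Esrp1, which is particular to epithelia, fell from 71.7 and 56.7 CPM to 0.254, 0.258 and 0.208 CPM (-8.04 ± 0.25, adjusted p = 4.3e-13). The tight junction gene Cldn6 fell by 4.97 ± 0.18 and the adhesion molecule Epcam by 2.22 ± 0.16, while Cdh1, encoding E-cadherin, was at 458 and 450 CPM against 550, 463 and 419 CPM (0.07 ± 0.11, adjusted p = 0.59). On the mesenchymal side, Cdh2 (-2.32 ± 0.30), Zeb2 (-2.41 ± 0.33) and Snai1 (-1.03 ± 0.24) fell, whereas Vim rose from 83.5 and 91.4 CPM to 213, 161 and 150 CPM (1.00 ± 0.21, adjusted p = 6.1e-04) and Zeb1 rose by 1.09 ± 0.16. Without FCS/LIF replicate 1 the Vim call was lost (0.95, adjusted p = 0.011), and without FCS/LIF replicate 2 that of Snai1 (-0.91).

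Genes of sterol synthesis rose together. FCS/LIF supplies lipoprotein cholesterol and serum fatty acids, whereas 2i/LIF contains no serum. When sterols are scarce, Srebf2 enters the nucleus and switches on the enzymes of the pathway. Of 27 genes of cholesterol synthesis and uptake tested, 20 rose and 1 fell, with a median of 0.98. Ebp, a sterol isomerase, rose from 14.3 and 15.3 CPM to 61.7, 55.3 and 61.9 CPM (2.01 ± 0.13, adjusted p = 1.2e-09). Msmo1, a sterol methyl oxidase, rose from 49.0 and 55.7 CPM to 194, 192 and 215 CPM (1.93 ± 0.19, adjusted p = 1.7e-07). Insig1, which helps to retain Srebf2 in the endoplasmic reticulum, rose from 58.6 and 55.5 CPM to 201, 171 and 166 CPM (1.65 ± 0.14, adjusted p = 2.3e-08). Srebf2 itself rose by 1.00 ± 0.07. Idi1, Lss and Mvd passed the p limit but not the fold limit (0.41 to 0.51). Abcg1, a sterol exporter driven by the liver X receptors, fell from 17.1 and 18.0 CPM to 7.24, 7.97 and 6.71 CPM (-1.27 ± 0.20, adjusted p = 3.0e-05), and the related exporter Abca1 was at 24.8 and 20.6 CPM against 23.4, 20.5 and 19.8 CPM (-0.10 ± 0.17, adjusted p = 0.64).

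Sequence before Hmgcs1, an early enzyme of the pathway, is shown as the list gene that held the sterol regulatory element TCACNCCAC; it rose from 197 and 208 CPM to 332, 295 and 349 CPM (0.68 ± 0.14, adjusted p = 3.4e-04). Of 18 list genes with a RefSeq promoter, it was the only 1 (5.56%) with that match on either strand in the 250 bases before the start, against 1.28% of the 10881 genes, and none of 11 fatty acid genes held it. CCAAT, the site of NF-Y, which works beside Srebf proteins, was found in 16 of the 18 (88.9%), against 41.1% of all 10881, 42.4% of genes that rose and 38.8% of genes that fell. The Hmgcs1 match begins 137 bases before the start (capitals, RefSeq, GRCm38.p6, chr13:119690101-119690350, + strand).
Hmgcs1: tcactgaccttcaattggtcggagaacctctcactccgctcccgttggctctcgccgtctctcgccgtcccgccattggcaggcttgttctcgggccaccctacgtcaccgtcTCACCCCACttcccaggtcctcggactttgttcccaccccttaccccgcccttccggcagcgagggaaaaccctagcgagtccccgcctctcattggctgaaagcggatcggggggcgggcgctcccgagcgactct

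Fatty acid synthesis rose with it: 10 of 14 genes rose and 1 fell, with a median of 1.10. The desaturases, which convert saturated into unsaturated fatty acids, led. Scd1 rose from 61.8 and 43.9 CPM to 325, 315 and 300.2 CPM (2.57 ± 0.17, adjusted p = 1.7e-09), Scd2 from 322 and 270 CPM to 1493, 1527 and 1444 CPM (2.33 ± 0.14, adjusted p = 5.2e-10) and Fads1 from 40.4 and 40.2 CPM to 121, 119 and 111 CPM (1.54 ± 0.12, adjusted p = 9.9e-09). Acss2, which makes acetyl-CoA from acetate, rose by 2.38 ± 0.13 and Acly, which makes it from citrate, by 0.89 ± 0.09. The core enzymes Fasn and Acaca were at 574 and 477 CPM against 632, 569 and 540 CPM (0.14 ± 0.10, adjusted p = 0.22) and at 114 and 91.4 CPM against 99.4, 95.0 and 95.6 CPM (-0.08 ± 0.08, adjusted p = 0.36), although limma on log2(TPM + 1) called Fasn higher (0.63, adjusted p = 2.3e-05). Acsl4, which activates polyunsaturated fatty acids, fell from 106 and 110 CPM to 54.1, 40.7 and 47.8 CPM (-1.18 ± 0.12, adjusted p = 2.1e-07).

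**Figure D4:**
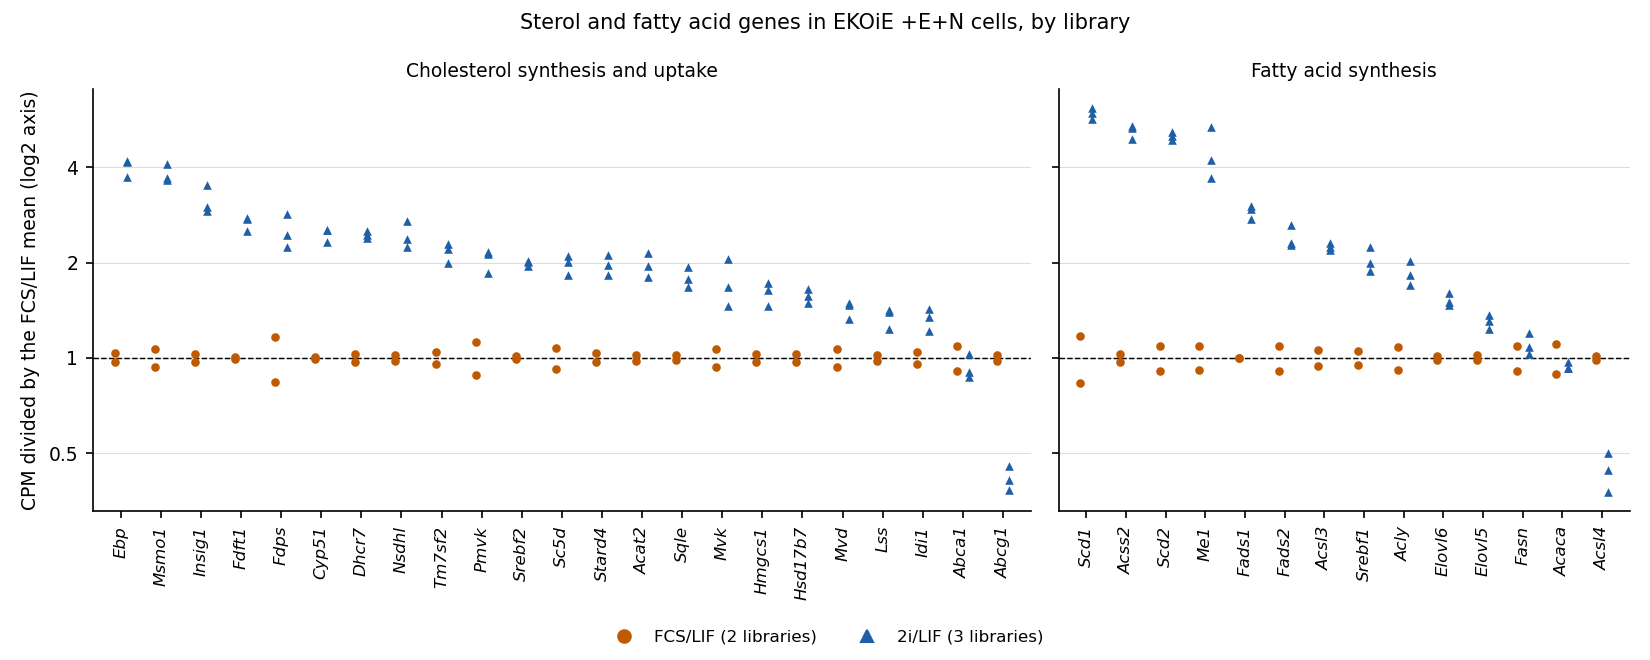
CPM of each +E+N library divided by the FCS/LIF mean of the gene (y axis, log2 scale) for 23 cholesterol and 14 fatty acid genes (x axis, ordered by fold change). Circles are the 2 FCS/LIF libraries and triangles the 3 2i/LIF libraries. Most genes lie above 1 in all 3 2i/LIF libraries, and Abcg1 and Acsl4 lie below it.

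In carbon metabolism, glycolytic genes fell in 8 of 23 cases and rose in 2, with a median of -0.35. Ldhb fell from 520 and 514 CPM to 132, 83.5 and 92.8 CPM (-2.33 ± 0.17, adjusted p = 7.9e-09). Ldha, the other lactate dehydrogenase subunit, fell from 1410 and 1278 CPM to 362, 686 and 606 CPM (-1.29 ± 0.18, adjusted p = 1.4e-05), and the glucose transporter Slc2a1 fell from 369 and 442 CPM to 120, 199 and 187 CPM (-1.27 ± 0.33, adjusted p = 0.0034). The Slc2a1 call was lost without 2i/LIF replicate 1 or either FCS/LIF library (-1.38 to -1.07). Several of these genes were lowest in 2i/LIF replicate 1, most of all the lactate exporter Slc16a3, at 9.20 CPM there against 64.1 and 53.3 CPM in the other 2i/LIF libraries and 109 and 96.7 CPM in FCS/LIF (-1.29 ± 0.55, adjusted p = 0.050). Hk1 rose from 47.5 and 51.4 CPM to 151, 140 and 134 CPM (1.52 ± 0.11, adjusted p = 3.7e-09), while Hk2 did not pass (0.10 ± 0.10). The falls numbered 5 without FCS/LIF replicate 1 and the rises 1 without FCS/LIF replicate 2. Of 76 nuclear genes of oxidative phosphorylation, 9 rose and none fell, a smaller share of rises than among all genes. Their median log2 fold change was 0.30, and 69 of the 76 values (90.8%) were above 0, against 50.7% of all genes tested. Ndufs8, a complex I subunit, rose most (1.32 ± 0.10). Of 86 ribosomal protein genes, 3 rose and 1 fell, with a median of 0.11, and the falls numbered 0 to 2 when libraries were left out in turn.

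Of 13 mitochondrially encoded genes, mt-Atp8 and mt-Nd4l rose (1.80 ± 0.22 and 1.02 ± 0.15) and mt-Atp6 fell (-1.06 ± 0.13). mt-Atp6 and mt-Atp8 overlap and their reads cannot be fully told apart, mt-Nd4l was not called on log2(TPM + 1) (0.09, adjusted p = 0.43), and 4 members rose without 2i/LIF replicate 2, 2i/LIF replicate 3 or FCS/LIF replicate 2. Among amino acid genes 6 of 20 rose and 1 fell, while 3 rose without FCS/LIF replicate 2 and 2 fell without FCS/LIF replicate 1. Asns, asparagine synthetase, rose from 173 and 177 CPM to 688, 719 and 720 CPM (2.02 ± 0.11, adjusted p = 1.7e-10), and Tdh, the threonine dehydrogenase on which mouse ES cells depend, rose from 105 and 97.4 CPM to 298, 229 and 203 CPM (1.27 ± 0.28, adjusted p = 8.6e-04), a call lost without FCS/LIF replicate 2 (1.19, adjusted p = 0.015). Phgdh, the entry enzyme of serine synthesis, was at 159 and 171 CPM against 111, 156 and 138 CPM (-0.29 ± 0.15, adjusted p = 0.098).

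In growth control, both Myc genes that ES cells rely on fell. Mycn fell from 321 and 322 CPM to 52.3, 59.2 and 45.1 CPM (-2.62 ± 0.18, adjusted p = 2.4e-09) and Myc from 40.0 and 26.3 CPM to 4.76, 3.17 and 4.33 CPM (-3.01 ± 0.21, adjusted p = 3.8e-09). Mycl rose from 9.16 and 10.1 CPM to 23.4, 22.1 and 22.9 CPM (1.25 ± 0.14, adjusted p = 7.9e-07). Among 20 cell cycle regulators, 8 rose and 3 fell. Inhibitors of cyclin-dependent kinases went both ways. Cdkn1c, described with the imprinted genes, had the largest change of the list and fell. Cdkn2c rose from 0.759 and 0.643 CPM to 4.63, 4.50 and 4.64 CPM (2.71 ± 0.22, adjusted p = 2.5e-08), Cdkn2a from 7.64 and 7.76 CPM to 37.0, 28.4 and 24.8 CPM (1.96 ± 0.17, adjusted p = 4.3e-08) and Cdkn1a from 36.2 and 55.3 CPM to 170, 150 and 133 CPM (1.72 ± 0.19, adjusted p = 6.7e-07). The mitotic cyclin Ccnb1 was at 426 and 421 CPM against 452, 440 and 409 CPM (0.03 ± 0.07, adjusted p = 0.67).

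Nuclear receptors, the family of Esrrb and Nr5a2, gave 5 rises and 3 falls among 21 tested. Pparg, which drives fat storage genes, had 175 counts in FCS/LIF and 1 in 2i/LIF, or a 187-fold lower level by count ratio (95% exact interval 33.2 to 7442). Esrra, a relative of Esrrb, rose from 21.9 and 21.8 CPM to 34.1, 37.6 and 41.1 CPM (0.78 ± 0.12, adjusted p = 2.0e-05). Nr0b1, or Dax1, which ES cells express as a partner of Nr5a2, was at 53.0 and 48.5 CPM against 44.1, 27.1 and 27.9 CPM (-0.62 ± 0.27, adjusted p = 0.060).

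Genes with the largest changes, ranked among genes that averaged 100 counts or more, included several not in any list. Rises after Cdx1 were led by Tlx2, a homeobox gene with 2 counts in FCS/LIF and 1177 in 2i/LIF (550-fold higher by count ratio, 95% exact interval 152 to 4544), Dmgdh, a mitochondrial dehydrogenase of choline catabolism (7.14 ± 0.36, adjusted p = 7.1e-11), and the ion channel gene Pkd2l1 (6.85 ± 0.36, adjusted p = 1.2e-10). Dmgdh was at 0.262 and 0.161 CPM against 39.4, 25.4 and 25.0 CPM. Pglyrp1, Xlr, Calr4 and Ppp1r14d followed with 6.06 to 6.43. Falls were led by Enpp2, which encodes the secreted enzyme autotaxin, with 25.9 and 19.4 CPM in FCS/LIF and no count in 2i/LIF, at least 655-fold lower. Car4, a carbonic anhydrase, was at least 400.0-fold lower and was also at 0 in every 2i/LIF library. Sct, Insm1 and Spink1 had 1 or 2 counts in 2i/LIF and count ratios of 1131 (313 to 9345), 867 (155 to 34292) and 1345 (241 to 53151). Zbed6 and Exosc6 were at 0 in 2i/LIF too, but all of their exonic bases are shared with another gene model on the same strand, so their reads cannot be told apart from those of the overlapping model.

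Genes of the 2-cell-like state, which a small share of ES cells enters in culture, were lower in 2i/LIF in control cells, with wide spread. Of 10 tested, 8 fell and none rose, with a median of -2.12. All 3 genes that entered the test through FCS/LIF alone fell, as did 5 of the 7 others, whose median was -2.11. In NrKO cells with Dox, 1 of the same 10 genes was called higher in 2i/LIF and 0 lower, with a median of 1.02. By the test of the difference between the lines described below, 1 of the 10 passed. Zscan4c was at 10.5 and 14.7 CPM against 2.38, 2.77 and 3.53 CPM (-2.13 ± 0.50, adjusted p = 0.0014), and Zscan4e was at 7.33 and 13.0 CPM against 1.33, 1.07 and 2.49 CPM (-2.63 ± 0.56, adjusted p = 6.1e-04). The Zscan4 genes are near-identical copies and their counts are not independent. Without FCS/LIF replicate 2, which held the higher values, 1 member passed the limits, and 3 to 5 did so without each of the 2i/LIF libraries in turn.

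The same media were compared in EKOiE NrKO cells with Dox, whose libraries are shared with none of the control libraries. There, 4793 genes (31.8%) were called. 3965 genes were called in both lines in the same direction, which is 75.1% of the calls in control cells and 82.7% of those in NrKO cells, and 10 were called in opposite directions. Across genes, which are not independent replicates, the log2 fold changes of the lines had a Pearson correlation of 0.897, given as a description. A test of the difference itself found 120 genes (0.795%) whose medium effect was not the same in the lines, 54 with the NrKO value above and 66 below. With DESeq2 this number was 454. Leaving out each of the 10 libraries in turn gave 50 to 130, with 50 to 55 without each of the 4 FCS/LIF libraries, 66 without NrKO 2i/LIF replicate 2 and 74 without control 2i/LIF replicate 2.

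Several of the genes described above had nearby values in the lines. Pou3f1 fell by 5.92 on the log2 scale in control cells and by 6.10 in NrKO cells, and Dnmt3l fell by 4.81 and 3.94. Cdx1 rose by 9.31 and 9.27, Tfcp2l1 by 2.53 and 2.61, Insig1 by 1.65 and 1.41 and Scd2 by 2.33 and 2.18. None of these 6 passed the test of the difference. The imprinted growth genes did differ: in NrKO cells Igf2 was at 487 and 697 CPM in FCS/LIF and 72.2, 64.6 and 54.0 CPM in 2i/LIF, a fall of 3.22 against 8.67 in control cells (difference 5.45 ± 0.39, adjusted p = 1.9e-06). H19 was at 825 and 1099.8 CPM in FCS/LIF and 267, 243 and 229.8 CPM in 2i/LIF in NrKO cells, a fall of 1.96 against 7.05 (difference 5.09 ± 0.46, adjusted p = 1.5e-05). In 2i/LIF, NrKO libraries thus held both RNAs at levels that no control library in 2i/LIF approached.

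Lefty1 and Lefty2 fell less in NrKO cells. Lefty1 was at 115 and 125 CPM in FCS/LIF and 62.2, 84.8 and 60.8 CPM in 2i/LIF there (difference 3.38 ± 0.33, adjusted p = 2.3e-05), and Lefty2 had a log2 fold change of -0.62 in NrKO cells against -2.29 (difference 1.67). Lef1 was at 27.4 and 25.4 CPM against 9.14, 5.44 and 5.42 CPM in NrKO cells (difference 3.20 ± 0.35, adjusted p = 7.7e-05). Car4 and Acta2, absent or nearly so in control cells in 2i/LIF, held 0.694 to 1.40 CPM and 0.402 to 0.668 CPM in NrKO cells in 2i/LIF. Sp8, a Wnt-responsive factor, was at 0.771 and 0.585 CPM against 5.27, 3.94 and 5.46 CPM in NrKO cells (2.85) but did not pass in control cells (0.37 ± 0.23), and Gbx2 rose by 2.13 in NrKO and 1.11 in control cells. Mycl went the other way: its rise in control cells (1.25) was not seen in NrKO cells, where it was at 10.6 and 9.80 CPM against 10.3, 7.89 and 8.21 CPM (-0.21, difference -1.46 ± 0.19, adjusted p = 5.3e-04). Zscan4a, a copy of the 2-cell-stage cluster, was at 3.93 and 3.32 CPM against 4.41, 5.62 and 11.4 CPM in NrKO cells (difference 3.56 ± 0.66, adjusted p = 0.0080).

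**Figure D5:**
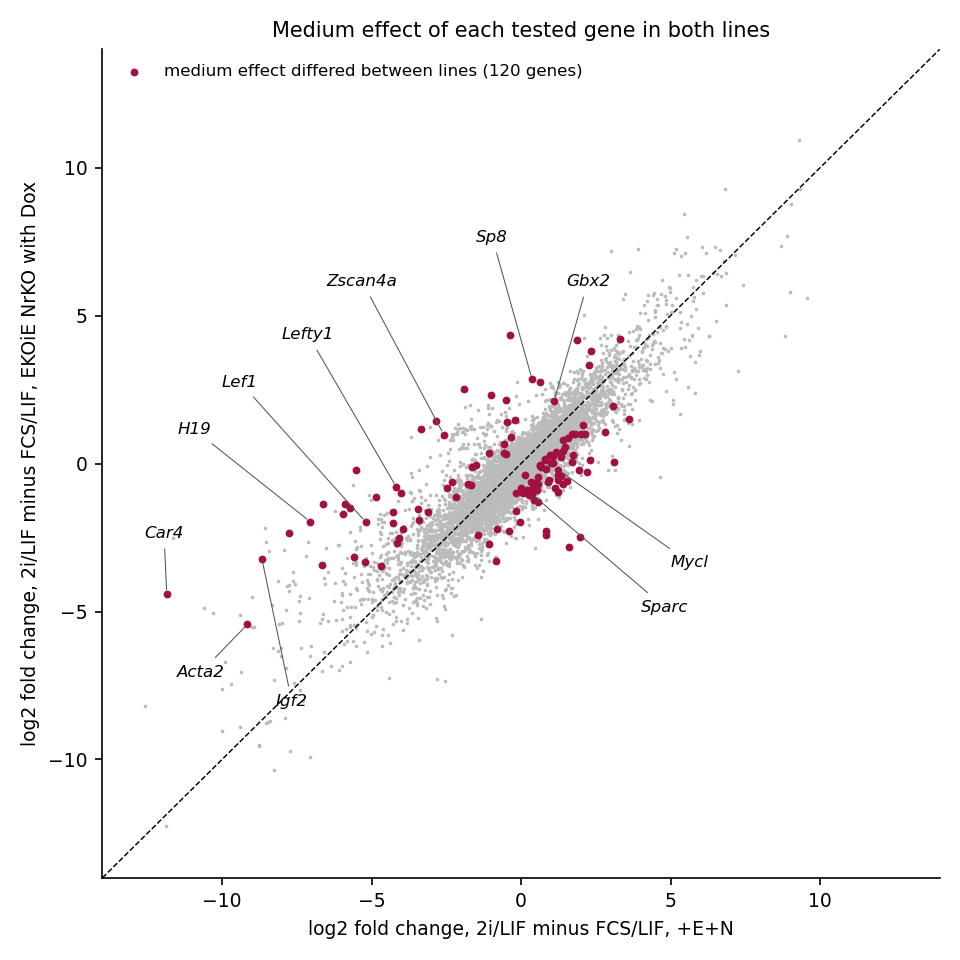
log2 fold change (2i/LIF minus FCS/LIF) of each of 15095 genes in +E+N cells (x axis) and in EKOiE NrKO cells with Dox (y axis). Each point is a gene, dark points are the 120 genes whose medium effect differed between the lines, and the dashed line marks equal values. Igf2, H19, Lefty1 and Lef1 lie above the line on the left, since they fell less in NrKO cells, and Mycl lies below it.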

How the data were processed

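RNA of EKOiE and EKOiE NrKO cells was sequenced as stranded poly-A libraries. Per the labels and the study's methods, the authors aligned reads to mm10 with STAR and estimated counts and TPM per gene with RSEM (versions are not given in the sources used here). The deposited table of estimated counts holds whole numbers and the deposited TPM table is scaled per length and library by the authors. It has 54238 rows, of which 92 are ERCC spike-in rows with no count, which were left out. Members and gene lists were chosen with earlier results of these data known.

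A gene was kept if every replicate of either control group had 20 counts or more (15095 genes). edgeR 4.0.16 (R 4.3.3) with TMM scaling and a quasi-likelihood fit over all 20 RNA-seq libraries gave each medium effect and the difference of effects between lines. A gene was called at a Benjamini-Hochberg adjusted p under 0.01 and a fold change over 1.5, and the difference at the p limit alone. CPM are counts per library size after TMM scaling. SE are standard errors of the log2 fold change. Levels of genes with 3 counts or fewer over a group are given as count ratios with 95% exact intervals, and those with none against a floor of 3 counts over the group, and both cover counting error only. Named genes were Esrrb, Nr5a2, the 10 largest rises and falls with a mean of 100 counts or more and no predicted gene name, and up to 4 called members of each list with the largest change. Other genes named were chosen after their values were seen. Some genes that the rule or a list holds are not reported here.

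Alternatives were DESeq2 1.42.0, limma 3.58.1 on TPM (log2 after adding 1 or 0.1), other scalings and filters, a correction for GC content and length, the replicate number as a block, and leaving out each library. The fit was tested on simulated counts of 15095 genes, of which 200 were changed 4-fold. In the plain simulation it called all 200 and 1 unchanged gene. With a GC effect between media added, the fit without correction called 193 of the 200 and 7278 unchanged genes. With the GC content and length correction it called 200 and 10. On the real counts that correction gave 5220 calls against 5279 in the main fit, which has no such correction. Motifs were searched on both strands in the 250 bases before the start in RefSeq promoters, matched by symbol for 10881 of the genes tested. Gene coordinates are those of GENCODE vM21 on mm10. ChIP-seq samples and libraries without Dox were not used for the comparison.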

Additional observations from a re-analysis of the deposited data

Results flagged for a closer look

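Each of the following genes had a medium effect that was not the same in EKOiE NrKO cells with Dox as in control cells, by the test of the difference itself (edgeR's quasi-likelihood test, adjusted p under 0.01). Values are the log2 effect in NrKO cells minus that in control cells. Genes that fell less in NrKO cells, or did not fall there, were Car4 (7.44), Igf2 (5.45), H19 (5.09), Acta2 (3.72), Zscan4a (3.56), Lefty1 (3.38), Lef1 (3.20), Fgfbp1 (2.27), Rhox6 (1.87) and Lefty2 (1.67). Gbx2 (1.02) rose more in NrKO cells, and Sp8 (2.48) was called in NrKO cells alone. Mycl (-1.46) was called higher in control cells alone. The values of Car4 and Acta2 rest on 0 to 2 counts in the control 2i/LIF libraries, so their size depends on the prior count of the fit. NrKO cells are clones, and clone and genotype cannot be told apart in these libraries.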

How the results depend on the processing

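The medium effect in control cells kept both directions at every setting. Its 5279 calls (2651 higher, 2628 lower) became 3325 (1623 and 1702) when the fold limit was put into the test (glmTreat), and leaving out each library gave 4421 to 5105, 2192 to 2623 higher and 2229 to 2561 lower. The 5 control libraries fitted alone gave 4876 calls (2434 higher, 2442 lower). DESeq2 gave 5407, and other count filters, scalings, a GC content and length correction and limma on TPM stayed within 1.5 times. Under the scalings 45.8% to 50.2% of calls were higher, and the median log2 fold change over all genes was -0.05 to 0.02. The number of genes whose medium effect differed between the lines was 120 (54 above, 66 below), 454 (209 and 245) with DESeq2, 309 (179 and 130) with no filter and 50 to 130 (25 to 54 above, 22 to 76 below) without each library. The cause was not tested. Replicate numbers 1 and 2 occur in both media, but nothing in the labels says that they mark a shared culture, and the deviations of same-numbered control libraries correlated by 0.24 and 0.09 over genes. With the replicate number as a block, 5684 genes were called in control cells (2758 higher, 2926 lower), 5171 in NrKO cells, and 498 differed between the lines (213 above, 285 below).

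Of the genes named, 244 were refitted at 10 other settings. 68 of these values lost a call that the gene had, mostly without an FCS/LIF library or on log2(TPM + 1), 7 gained one, and no gene that was called changed sign. Genes not called and close to 0 did change sign: Abca1 0.038, Dppa5a -0.13, Pou5f1 -0.018 and Tcf7l1 -0.0018 in limma on log2(TPM + 1), Gsk3b 0.0088, Nodal 0.024 and Sox1 -0.061 with the replicate number as a block, Tcf7l1 -0.00037 under DESeq2 and Tcf7l1 -0.00021 under DESeq2 size factors in edgeR. Without each control library in turn, Abca1 ran from -0.24 to 0.051, Acaca ran from -0.26 to 0.092, Cdh1 ran from -0.043 to 0.16, Cdx2 ran from -1.07 to 0.016, Dppa5a ran from -0.025 to 0.067, Fasn ran from -0.0049 to 0.29, Gsk3b ran from -0.059 to 0.0404, Pou5f1 ran from -0.072 to 0.11, Tcf7l1 ran from -0.11 to 0.12 and Zfp42 ran from -0.13 to 0.035. With 2 libraries in FCS/LIF, 1 of them carries its group alone when the other is left out and is then assumed to vary like the other groups.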

Other observations

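Gene families defined by symbol after the ranking had been seen gave further counts. Of 11 keratin genes tested 8 fell and none rose, with a median log2 fold change of -3.55. Of 7 claudin genes 5 fell and none rose, and of 25 collagen genes 12 fell and 1 rose (medians -1.44 and -0.96). Serpinb protease inhibitors gave 7 falls and 2 rises among 11 (28 in the table), but 6 of the falls were of genes that entered the test through FCS/LIF alone, so the count says nothing of the family. Among the genes that reached the count minimum in both media, 4 of 6 keratins, 3 of 5 claudins and 7 of 17 collagens fell. Lipid-carrying and other genes whose symbols begin with Apo gave 8 rises and 2 falls among 15, and solute carriers 77 rises and 50 falls among 252. Members of the Serpinb and Apo groups include near-identical copies, and all of these shares are to be read against the 17.6% of all genes that rose and the 17.4% that fell.

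By gene type, 13480 of the 15095 genes tested were protein-coding, as were 2322 of the 2651 genes that rose and 2396 of the 2628 that fell. Processed pseudogenes, whose reads can come from their parent genes, gave 115 rises and 40 falls. How many of them were tested was not counted, so these numbers cannot be set against the shares of all genes.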
